A study of Mus musculus with 4 samples.

Results

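Among the 5332 ATAC-Seq peaks of long-term hematopoietic stem cells (LT-HSCs) for which a table of differences between Sin3B-/- and Sin3B+/+ cells was deposited, 1217 peaks, or 22.8% of the table, had a summed level in the Sin3B-/- libraries at least 2-fold above the summed level in the Sin3B+/+ libraries, a log2 ratio of 1 or more. These 1217 regions are called the 2-fold peaks. They were chosen on the levels of all 4 libraries, so their difference between genotypes is given as a description and was not tested. The other rows of the table were 3886 peaks that were higher in Sin3B-/- LT-HSCs by less than 2-fold, called the smaller gains, and 229 peaks that were lower. All rows had passed the authors' own FDR of 0.05, and peaks without such a call were not analysed here. The study reports more peaks in each direction at that FDR than the deposited rows hold, so shares of the table are not shares of its full set.

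ATAC-Seq uses the Tn5 transposase, which inserts adapters into open DNA more readily than into DNA wrapped in nucleosomes, so that the number of reads in a peak follows how accessible that stretch of chromatin is. Sin3B is a scaffold protein without a DNA-binding domain of its own, which is brought to DNA by sequence-specific factors and carries histone deacetylases that repress nearby genes, in part during exit from the cell cycle. LT-HSCs are the rare, mostly quiescent bone marrow cells that renew themselves and replenish all blood lineages. Peaks at gene starts mark promoters, whereas peaks in introns and between genes often mark enhancers and other elements that vary more between cell types.

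The comparison had 2 Sin3B+/+ libraries (labelled WT, and described by the study as Sin3B F/F) and 2 Sin3B-/- libraries (labelled 3BKO) of untreated LT-HSCs, and each library pooled cells sorted from 2 mice. All mice were C57BL/6, and their age is not given in the sources used here. In Sin3B-/- mice the floxed gene was deleted throughout the blood system, from before birth, by Cre expressed from the Vav1-iCre transgene, and a Cre transgene in the Sin3B+/+ mice is not named in the labels. The cells were sorted as Lineage-, Sca-1+, c-Kit+, Flk2-, CD48- and CD150+. Of the marker genes of that gate and of other marrow cells that were looked up, Slamf1 (CD150) had 1 row and Procr had 2 rows in the table, none of them a 2-fold peak, whereas Kit, Ly6a, Mecom, Hlf, Flt3, Cd48, Cd3e, Itgam and Ly6g had none. The table could therefore not be used to check the cell type. It had no row annotated to Sin3b, so the deletion could not be checked in it either.

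The sequences of 4 of the 10 2-fold peaks with the largest ratio are shown because these regions had the strongest contrast between genotypes. Each is the central 300 bases of the peak on the plus strand of the C57BL/6J reference genome, build GRCm38, and the capitals mark exact matches, on either strand, to any of the 18 short motifs described below. The windows are chr17:45517699-45517998 in Aars2, chr8:33593855-33594154 upstream of Ppp2cb, chr9:113904926-113905225 in Clasp2 and chr17:24859039-24859338 in Hagh.
Aars2: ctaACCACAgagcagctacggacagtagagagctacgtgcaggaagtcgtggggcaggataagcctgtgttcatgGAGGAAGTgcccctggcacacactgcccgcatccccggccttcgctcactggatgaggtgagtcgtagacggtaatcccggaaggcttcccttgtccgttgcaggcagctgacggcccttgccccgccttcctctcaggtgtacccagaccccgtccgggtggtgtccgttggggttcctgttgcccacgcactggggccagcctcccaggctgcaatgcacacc
Ppp2cb: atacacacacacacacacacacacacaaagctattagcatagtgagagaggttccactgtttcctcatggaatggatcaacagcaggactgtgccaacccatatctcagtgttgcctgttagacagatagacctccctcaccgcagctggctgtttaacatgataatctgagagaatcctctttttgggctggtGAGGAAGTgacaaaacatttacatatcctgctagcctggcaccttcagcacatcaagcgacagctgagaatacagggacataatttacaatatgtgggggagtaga
Clasp2: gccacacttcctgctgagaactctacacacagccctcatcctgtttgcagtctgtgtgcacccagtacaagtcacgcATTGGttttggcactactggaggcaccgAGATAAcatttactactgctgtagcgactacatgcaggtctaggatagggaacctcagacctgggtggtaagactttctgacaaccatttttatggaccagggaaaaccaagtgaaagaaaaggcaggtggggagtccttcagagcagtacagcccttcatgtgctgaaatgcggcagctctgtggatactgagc
Hagh: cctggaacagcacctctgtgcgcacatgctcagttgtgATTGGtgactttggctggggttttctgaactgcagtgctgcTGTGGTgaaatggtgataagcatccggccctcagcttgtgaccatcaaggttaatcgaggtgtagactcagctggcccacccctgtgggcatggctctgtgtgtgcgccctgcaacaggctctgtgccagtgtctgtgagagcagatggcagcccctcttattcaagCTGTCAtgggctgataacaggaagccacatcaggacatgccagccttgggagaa
The Aars2 and Ppp2cb windows each hold 1 match to the PU.1 motif GAGGAAGT, the Aars2 and Hagh windows each hold 1 match to the RUNX motif TGTGGT (written ACCACA on the other strand), and the Clasp2 window holds 1 match to the GATA motif AGATAA. The other capitals are matches to the NFY motif CCAAT in Clasp2 and Hagh and to the MEIS motif TGACAG in Hagh. PU.1, RUNX and GATA proteins are transcription factor families that control blood cell genes. A match is a run of letters and does not show that a factor was bound.

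The largest ratio was found in Aars2, which encodes the mitochondrial alanyl-tRNA synthetase, at chr17:45517563-45518134, 11007 bp from the start of the gene. Annotations here are those of the peak centre, which lay in an intron in this case. The peak itself can reach into neighbouring exons. The levels, in reads scaled by 1 factor per library, were 18.2 and 21.9 in the Sin3B+/+ libraries and 195 and 225 in the Sin3B-/- libraries. The means were 20.1 ± 2.61 and 210.0 ± 21.3 (SD, n = 2), a ratio of 10.4-fold or 3.39 on the log2 scale. The second largest ratio lay between genes at chr8:33593663-33594345, 5621 bp upstream of Ppp2cb, which encodes a catalytic subunit of protein phosphatase 2A (PP2A). It had 21.7 and 20.6 in the Sin3B+/+ libraries against 199.9 and 221 in the Sin3B-/- libraries, a 9.96-fold difference. In both regions the Sin3B+/+ libraries were near the bottom of the table and the Sin3B-/- libraries stood close together far above them.

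The third peak by ratio was in an untranslated exon of Ptpa, whose product activates PP2A, at chr2:30447213-30447747. It had the lowest Sin3B+/+ level of the whole table, 9.58 and 5.14 in the replicates, against 62.5 and 66 in Sin3B-/- LT-HSCs. The fourth was in an intron of Clasp2, which encodes a protein that stabilizes microtubule plus ends, with levels of 32.6 and 28.4 against 239 and 291, an 8.67-fold difference. Among the next in order were Hagh (glyoxalase II, in the removal of methylglyoxal), Ddx19a (an RNA helicase), Cul4a (a ubiquitin ligase scaffold), Cyb5r3 (cytochrome b5 reductase) and Tubgcp3 (a part of the gamma-tubulin complex), with log2 ratios between 2.98 and 2.64. All 10 lay outside promoters, 7 of them with the centre in an intron. In each the lower Sin3B-/- library was above the higher Sin3B+/+ library, as in all 1217 2-fold peaks, which the choice of members largely fixes. The mean Sin3B+/+ levels of these 10 were all low, between 7.36 and 30.5, and the low level enters the ratio as its denominator.

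**Figure D1:**
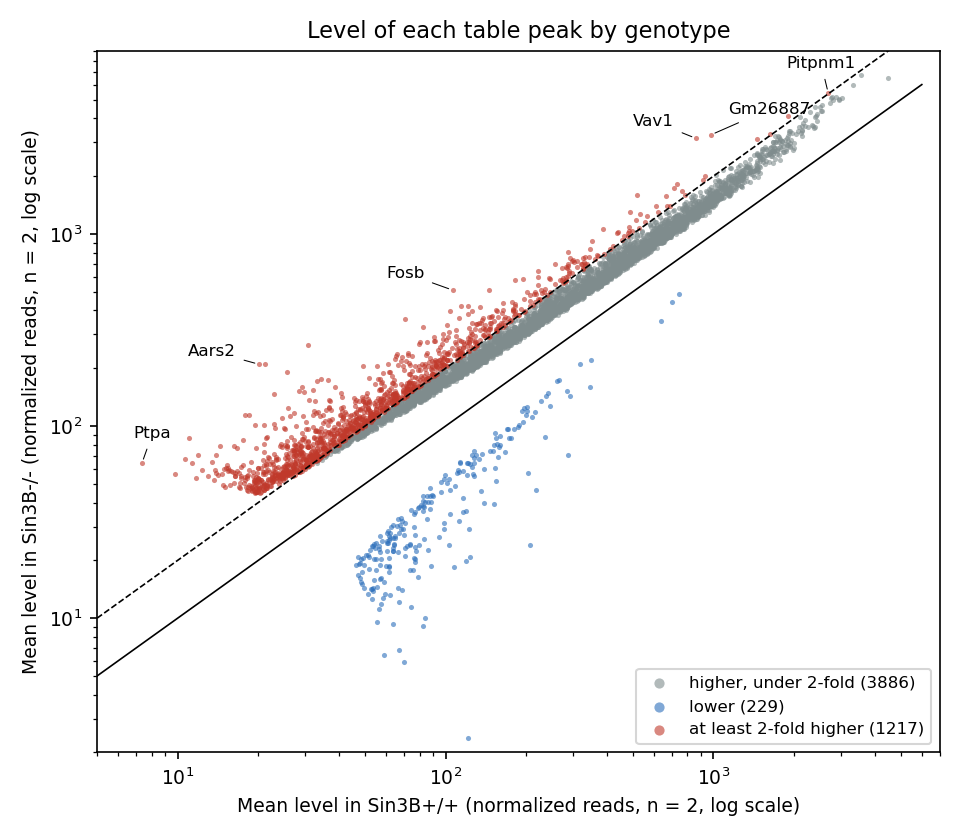
Mean level in the 2 Sin3B+/+ libraries (horizontal) against the mean level in the 2 Sin3B-/- libraries (vertical), in normalized reads on log scales, for each of the 5332 table peaks, with the solid line at equal levels and the dashed line at a 2-fold difference. The 1217 2-fold peaks (red) lie above the dashed line and mostly at low Sin3B+/+ levels, with Vav1 and Gm26887 as exceptions at high levels.

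Most 2-fold peaks were close to the threshold. The median log2 ratio was 1.21 (interquartile range 1.097 to 1.393, highest 3.39), against 0.76 over the whole table, and 313 of the 1217 had a log2 ratio below 1.1. The log2 ratio was 1.5 or more in 216 peaks, 2 or more in 50 and 3 or more in 4. The 3 members just inside the threshold were in Ptprj (228.7 and 212 in Sin3B-/- against 115.45 and 104.89 in Sin3B+/+ LT-HSCs), upstream of Gm33280 and in Ppfia1. The 3 peaks just outside it, in Cbfa2t3, upstream of Gm15529 and in Ust, had log2 ratios of 0.9995, 0.9993 and 0.9991, and 439 smaller gains had a log2 ratio of at least 0.9. The 2-fold peaks are thus the upper end of a continuous range and not a separate group.

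The genotypes did not overlap in any of the 1217 2-fold peaks, which the choice of members largely fixes. Overlap was not counted in the other table peaks, which had passed the same FDR filter, so its absence cannot be called particular to the 2-fold peaks. In 466 of the 1217 the lower Sin3B-/- library was still at least 2-fold above the higher Sin3B+/+ library. No other table peak met this, which the rule fixes. The outcome differed between pairs of libraries. Sin3B-/- replicate 1 was at least 2-fold above Sin3B+/+ replicate 1 in 647 of the 1217 peaks (53.2%), with a median of 2.04-fold, whereas Sin3B-/- replicate 2 was at least 2-fold above Sin3B+/+ replicate 2 in 1148 (94.3%), with a median of 2.74-fold. Sin3B+/+ replicate 1 was the higher of its pair in 989 of the 1217 peaks, and its median level over the whole table was also higher (214 against 180). The spread within a genotype was 16.7% of the mean in Sin3B+/+ and 9.37% in Sin3B-/- LT-HSCs at the median peak (SD, n = 2), and the replicates were more than 2-fold apart in 15 peaks in Sin3B+/+ and in 1 peak in Sin3B-/- LT-HSCs.

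The 2-fold rule depended on how the libraries were set to a common scale. The median table peak had levels of 214 and 180 in Sin3B+/+ LT-HSCs, and of 319 and 343 in Sin3B-/- LT-HSCs. When each library was instead scaled to the same median over the table, which moved the median log2 ratio of the table by -0.75, the 2-fold count fell to 98 peaks, or 1.84% of the table. All 98 were among the 1217, all 1217 stayed above 0, and their median log2 ratio was 0.46. The Aars2, Ppp2cb, Ptpa and Clasp2 peaks had log2 ratios of 2.61, 2.56, 2.40 and 2.36 on that scale. Which scale is nearer to the cells cannot be told apart from these values, since the table holds only peaks called different. The values below therefore describe the 2-fold peaks relative to the rest of the table.

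The 2-fold peaks started low. Their Sin3B+/+ level had a median of 45.4 (interquartile range 28.4 to 84.9, range 7.36 to 2684), against 305.6 in the smaller gains, 79.9 in the peaks that were lower and 196 over the table. In Sin3B-/- LT-HSCs their median was 110.1, which is below the Sin3B+/+ median of the smaller gains. Only 103 of the 1217 had a Sin3B+/+ level above the table's median. Of the 534 table peaks in the lowest decile of Sin3B+/+ level 518 (97.0%) were 2-fold peaks, and the share went down to 50.7% in the second decile, 20.6% in the fourth and 8 of 534 peaks in the highest, beside 22.8% overall. The Sin3B+/+ level is the denominator of the rule, so this order is partly built in. The FDR filter adds to it: the smallest log2 ratio among higher peaks was 0.94 in the lowest decile and 0.43 in the highest, so that a low peak entered the table only with a large ratio.

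**Figure D2:**
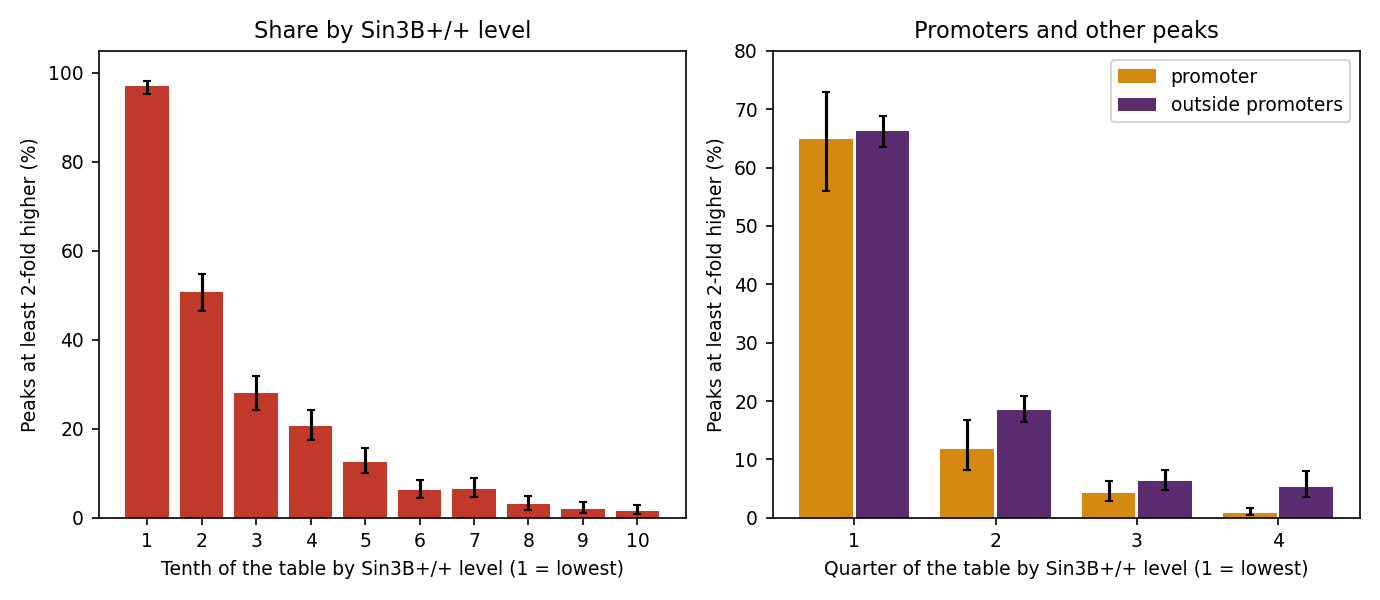
Share of table peaks that were at least 2-fold higher in Sin3B-/- LT-HSCs (vertical, percent), by decile of the Sin3B+/+ level (left) and by quartile for promoter peaks and other peaks (right), with 95% Wilson intervals that cover counting error only. The share falls from 97.0% in the lowest decile to 8 of 534 peaks in the highest, and promoter and other peaks of the lowest quartile have shares of 65.0% and 66.3%.

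The 2-fold peaks were mostly away from promoters. A peak was called a promoter where its centre lay at most 1000 bp before or 100 bp after a transcription start site. By this definition 132 of the 1217 were promoters (10.8%, 95% Wilson interval 9.22 to 12.7%), against 41.7% of the smaller gains and 33.3% of the table. Introns held 647 (53.2%) and intergenic sequence 326 (26.8%), against 31.4% and 19.9% of the smaller gains. Untranslated exons held 51, coding exons 40 and non-coding exons 21. Read the other way, 7.43% of the 1776 promoter peaks of the table and 30.5% of the 3556 other peaks were 2-fold peaks. Intervals given for shares of peaks cover counting error only, because neighbouring peaks and peaks of the same libraries are not independent.

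The contrast was also laid out by quartile of Sin3B+/+ level, which is the denominator of the rule. In the lowest quartile of Sin3B+/+ level 65.0% of 117 promoter peaks and 66.3% of 1216 other peaks were 2-fold peaks. Higher peaks entered the table there only above a log2 ratio of 0.79 for promoters and 0.75 for others, so these shares are largely set by the filter. They were 11.8% of 220 against 18.5% of 1113 in the second quartile and 4.25% of 518 against 6.26% of 815 in the third. In the highest quartile they were 0.869% of 921 promoters (95% Wilson interval 0.441 to 1.70%) against 5.34% of 412 other peaks (3.55 to 7.95%). The 6 promoter peaks with the largest ratio, named here after their values were seen, were annotated to Trip11, Mir6915, Hnrnpul2, Synj1, Tecr and Gsr, with log2 ratios of 2.26 to 1.80, each at a Sin3B+/+ mean under 50. Several of these start sites were of other transcripts than the gene named in the table. The Trip11 peak, for instance, lay 998 bp from the start of Gm20702.

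**Figure D3:**
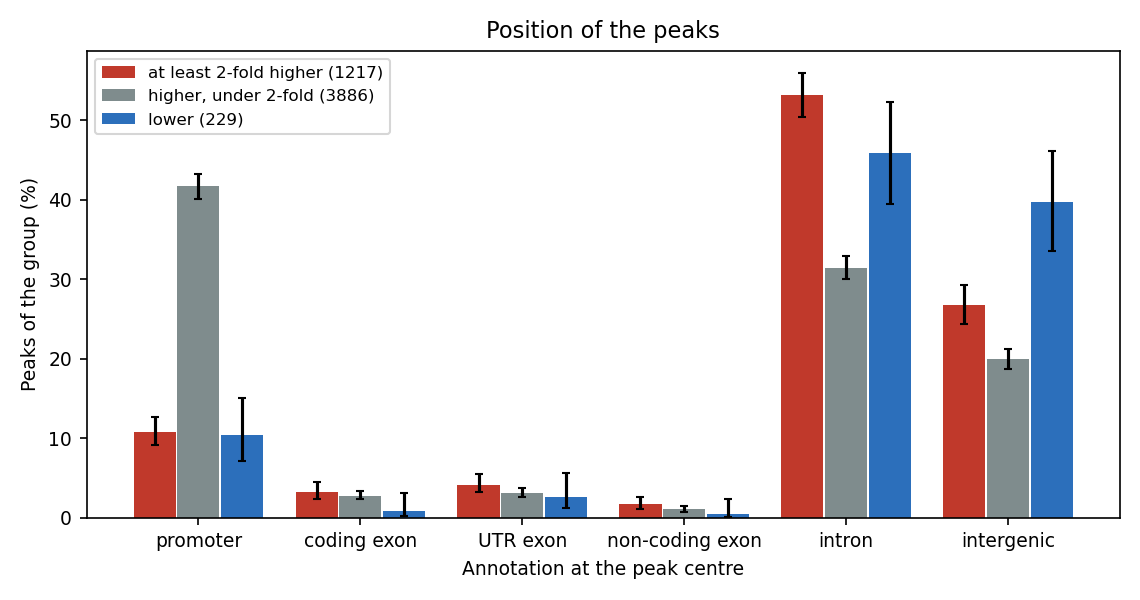
Share of each group of peaks (vertical, percent, with 95% Wilson intervals for counting error) by the annotation at the peak centre, for the 1217 2-fold peaks (red), the 3886 smaller gains (grey) and the 229 lower peaks (blue). Promoters make up 10.8% of the 2-fold peaks and 41.7% of the smaller gains, and introns 53.2% and 31.4%.

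The median distance to the nearest start site was 6370 bp in the 2-fold peaks and 1012 bp in the smaller gains. A start site lay within 1 kb in 203 of the 1217, at 1 to 10 kb in 556 (45.7%, against 25.4% of the smaller gains), at 10 to 100 kb in 451 and beyond 100 kb in 7. Inside genes the 2-fold peaks were spread along the whole length, with 32.9% of 859 in the first 25% and 22.4% in the last 25%, against 56.0% and 12.8% of 2382 smaller gains. Among intron peaks alone the share in the last 25% was 18.85% and 16.97%. The 2-fold peaks were also narrower, with a median width of 467 bp against 759.5 bp, and less rich in G and C (50.3% against 54.7%), with 1.44 against 2.84 CpG per 100 bases. Repeats covered a median of 10.4% against 7.50% of their bases, and 44 of the 1217 (3.62%) were at least 50% repeat sequence, against 1.03% of the smaller gains.

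By chromosome, the share of 2-fold peaks was highest on chromosome 17 (88 of 328 table peaks, 26.8%) and lowest on chromosome X (12 of 90, 13.3%) and chromosome 18 (23 of 157, 14.6%). Another 2-fold peak lay within 10 kb of 166 of the 1217 (13.6%), and within 200 kb of 613 (50.4%). For the more numerous smaller gains these shares were 17.2% and 71.4%.

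The 1217 peaks were annotated to 1097 of the table's 4376 genes, of which 1000 had 1 such peak, 78 had 2 and 19 had 3 or more. Protein-coding genes took 81.0% of the 2-fold peaks (80.2% over the table), long intergenic non-coding RNA genes 7.31% (7.31%) and antisense genes 4.27% (3.30%). For 775 of the 1217 (63.7%) the nearest start site was of the gene that the table names, against 75.1% of the smaller gains, so a gene name here often marks the gene body a peak lies in and not its nearest start. Of the 1097 genes 289 had a further table peak that was no 2-fold peak, and 372 of these 377 peaks were higher and 5 lower in Sin3B-/- LT-HSCs. In 99 genes a promoter peak below the rule stood beside a 2-fold peak elsewhere. These promoters had a median Sin3B+/+ level of 409 and a median log2 ratio of 0.66, and the 114 2-fold peaks of the same genes had 46.0 and 1.21.

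At the upper end of the Sin3B+/+ levels, 23 of the 2-fold peaks had a mean above 500. The highest 5 were in a coding exon of Pitpnm1 (a lipid transfer protein), in an intron of Impact (an inhibitor of the kinase GCN2), and at Gm43852, Gm13387 and Gm26887, which are predicted genes. Pitpnm1 had 2763 and 2605 in Sin3B+/+ LT-HSCs against 5047 and 5785 in Sin3B-/- LT-HSCs, which is just past the rule at a log2 ratio of 1.01. The other 4 had log2 ratios of 1.04 to 1.75.

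The Gm26887 peak at chr8:84197321-84198912 combined a high level with a large ratio. The Sin3B+/+ libraries had 1132 and 830.2 there and the Sin3B-/- libraries 3420 and 3157, with means of 981 ± 213 and 3288 ± 186 (SD, n = 2), a 3.35-fold difference. Its centre lay 449 bp upstream of Gm26887 and 10402 bp upstream of the start of Mir23a, the first of 3 clustered miRNA genes (Mir23a, Mir27a and Mir24-2) known for high expression in blood cells. A second 2-fold peak, at Gm37352 between the first and the miRNA genes, had a log2 ratio of 1.06, with 781 and 564 against 1394 and 1419. The peak closest to Mir23a itself, 538 bp upstream, was a smaller gain with a log2 ratio of 0.75. The Gm37352 and Mir23a peaks were looked up after the values of the Gm26887 peak were seen.

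Vav1 encodes a guanine nucleotide exchange factor of blood cells, and 3 of the 4 table peaks annotated to it were 2-fold peaks. The intron peak at chr17:57290057-57291229, 11543 bp from the gene start, had levels of 901 and 817 in Sin3B+/+ and of 3039 and 3265 in Sin3B-/- LT-HSCs. Its ratio was 3.67-fold (means 859 ± 59.6 and 3152 ± 160, SD, n = 2). The peaks at the start site and 2178 bp upstream had log2 ratios of 1.37 and 1.24, and the fourth, beyond the end of the gene, had 0.95. Sin3B-/- mice carry the Vav1-iCre transgene, which is built with regulatory sequence of Vav1, so reads from transgene copies and from the Vav1 locus itself cannot be told apart at these peaks. Without the peaks annotated to Vav1 the 2-fold peaks number 1214.

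Immediate early genes, which cells switch on within minutes of a stimulus without new protein synthesis, came up repeatedly among the 2-fold peaks. A list of 37 such genes was drawn up after these values had been seen, so its counts are a description. Of 48 table peaks annotated to, or nearest to the start of, 21 of these genes, 20 were 2-fold peaks (41.7%, beside 22.8% over the table), and they belonged to 10 genes. Because the genes were picked for this pattern, the share supports nothing about such genes, and the list of AP-1, Egr, Klf and Atf factors, defined by symbol, had 6 of 24. Outside promoters the count was 14 of 33 (42.4%, against 30.5% over the table), and without Fos it was 16 of 44.

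Fos, a subunit of the AP-1 transcription factor, had 4 table peaks, all intergenic and all 2-fold peaks, 18553, 16030 and 5016 bp upstream and 11998 bp downstream of the gene start. The one at -5016 bp had levels of 145 and 98.0 in Sin3B+/+ and 408 and 439 in Sin3B-/- LT-HSCs, a 3.48-fold difference, and the other 3 had log2 ratios of 1.01 to 1.13. Its paralog Fosb had a 2-fold peak in an untranslated exon with 164 and 48.7 against 582 and 439, a log2 ratio of 2.26. The Sin3B+/+ libraries differed more than 3-fold there, although both lay below the Sin3B-/- libraries. A second 2-fold peak nearest to the Fosb start, which the table assigns to D830036C21Rik, had 249 and 165 against 499 and 465 (1.22), and a Fosb intron peak was a smaller gain at 0.95. Junb, another AP-1 subunit, had 1 2-fold peak of 3, at a log2 ratio of 1.06.

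Zfp36 encodes tristetraprolin, which shortens the life of messenger RNAs such as those of cytokines. Its start site was the nearest to 4 2-fold peaks that the table assigns to the overlapping predicted gene Gm44710, and with 1 peak of Med29 these made the run with the most members, 5 2-fold peaks in 7749 bp on chromosome 7, with no other table peak among them. The highest had levels of 756 and 572 in Sin3B+/+ and 1603 and 1545 in Sin3B-/- LT-HSCs. A further peak outside this run, annotated to Zfp36 itself, was a smaller gain with a log2 ratio of 0.67. Ppp1r15a, which encodes the GADD34 subunit that reverses phosphorylation of the translation factor eIF2α, had 3 2-fold peaks in or nearest to it, at 392.45 and 381.49 against 1076 and 1054 in the coding exon, 601 and 460.3 against 1245 and 1312 at the promoter, and a log2 ratio of 1.08 in the neighbouring Tulp2. Dusp1 (1 of 3), Nr4a1 (2 of 4), Nr4a2 (1 of 2), Ier5 (1 of 1) and Mcl1 (1 of 1) supplied the others, with log2 ratios of 1.02 to 1.28. Egr1, Egr3, Klf2, Klf6, Jun, Ier2, Myc, Nr4a3, Dusp2, Dusp6 and Gadd45a had table peaks but none of 2-fold, the nearest being a promoter peak closest to the start of Jun at 0.98.

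**Figure D4:**
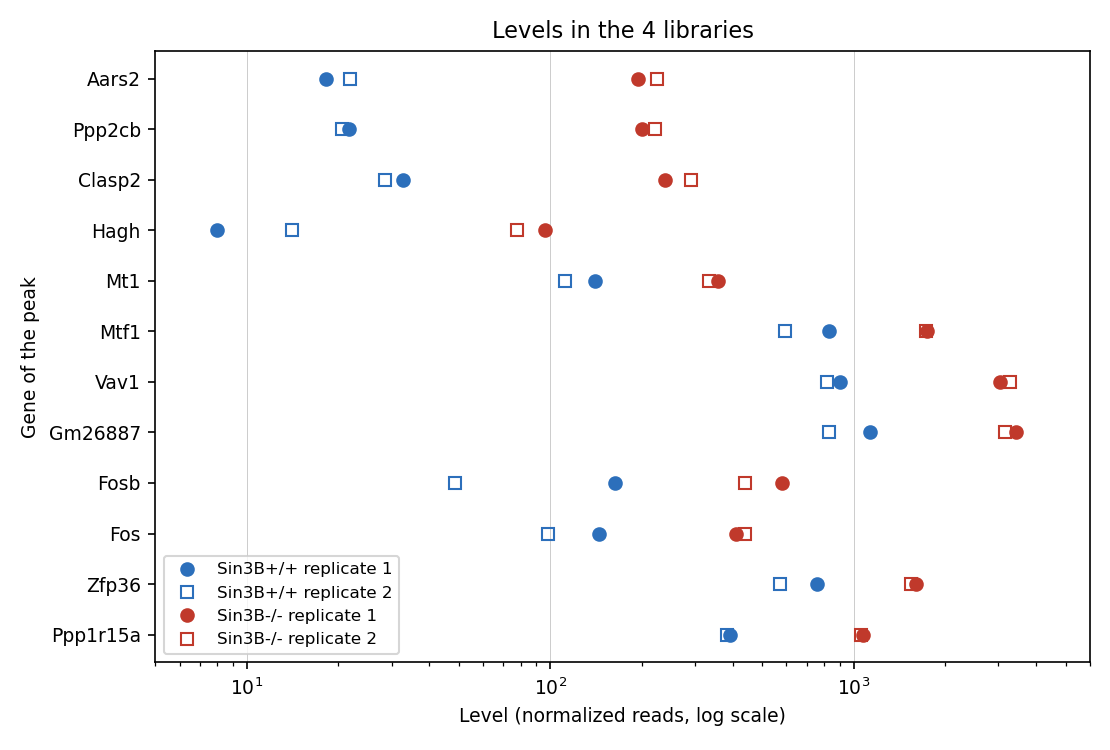
Level in each of the 4 libraries (horizontal, normalized reads on a log scale) of the 2-fold peak with the largest ratio at each of 12 genes, with Sin3B+/+ in blue and Sin3B-/- in red and replicates 1 and 2 as filled circles and open squares. In every row both red points lie to the right of both blue points, which the choice of 2-fold peaks largely fixes. The Fosb row has the widest blue pair.

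Metallothionein and its regulator were chosen for mention after their values were seen. Mt1, which encodes a protein that binds zinc and other metals, had a 2-fold peak at its promoter, with 140 and 112 in Sin3B+/+ and 357 and 333 in Sin3B-/- LT-HSCs, a log2 ratio of 1.45. Mtf1, the metal-responsive factor that switches Mt1 on, had a 2-fold promoter peak with 831 and 596 against 1751 and 1727, a log2 ratio of 1.29. A second peak of Mtf1, in an untranslated exon, was a smaller gain at 0.988. Mt2, which was looked up as well, had no row.

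The genes with 3 or more 2-fold peaks were led by Gm20388 with 5, but this predicted gene model spans several megabases of chromosome 8 and its peaks lay in or beside other genes. Fos and Gm44710 had 4. The remaining 16 with 3 each included regulators of transcription, cell shape and membranes. Elf1, an ETS transcription factor of blood cells, had 3 intron peaks in 7666 bp with log2 ratios of 1.23 to 1.86. Dot1l, the H3K79 methyltransferase, had log2 ratios of 1.03 to 1.34, and Ezr (ezrin, which ties actin to the membrane) had 3 intron peaks with 1.09 to 1.66. Adgre5 (CD97, an adhesion G protein-coupled receptor) had 3 around its start site, the promoter itself among them, with log2 ratios of 1.15 to 1.29. Slc38a1 (a glutamine transporter), Myct1 (an endothelial and stem cell gene), Capzb (actin capping), Pbxip1, Neurl3, Anks1, Tmtc1, Ctif, Ccdc57 and A630091E08Rik were among the others, beside Vav1.

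Some of these genes also showed that neighbouring peaks can differ. At Myct1 the promoter peak was a smaller gain (298 and 223 against 421 and 503, log2 ratio 0.82), and the 2-fold peak 857 bp into the gene was low, with 26.7 and 24.7 against 75.6 and 78. The same arrangement, a high and wide peak of smaller ratio beside a low and narrow 2-fold peak, was seen at Dot1l 3594 and 2970 bp upstream of the gene, with log2 ratios of 0.82 and 1.03.

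Gene families were counted by symbol, as the 2-fold peaks among all table peaks of a family, beside 22.8% over the table. Protein phosphatase subunits, with the activator Ptpa counted in, had the highest share among the lists counted by symbol with at least 10 table peaks. It was 12 of 29 (41.4%, 95% Wilson interval 25.5 to 59.3%), and 11 of 18 outside promoters. The lists were chosen with earlier results of these data known, so this rank is a description only. The PP2A genes among them, counted apart after their values were seen, had Ppp2cb and Ptpa among the 3 largest ratios of the table, Ppp2r1b (scaffold subunit) at a log2 ratio of 1.25 and Ppp2r5c (regulatory subunit) at 1.19 and 1.09. Altogether 5 of the 8 table peaks of PP2A subunits and Ptpa were 2-fold peaks, and the promoters of Ppp2r1a and Ppp2r5a (0.72 and 0.73) and another peak of Ppp2r5c, in an intron (0.95), were smaller gains.

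Solute carriers had 22 of 71 (31.0%, interval 21.4 to 42.5%), none at a promoter, and 22 of their 55 peaks outside promoters were 2-fold peaks, where 30.5% of all table peaks outside promoters were. The largest ratio was in an intron of Slc20a2, a phosphate transporter, with 13.0 and 14.7 in Sin3B+/+ and 68.1 and 73 in Sin3B-/- LT-HSCs, followed by Slc25a38 (glycine import into mitochondria), Slc3a2 (the CD98 heavy chain) and Slc4a5. Ubiquitin ligases, conjugases and proteases had 20 of 79 (25.3%) with Cul4a, Usp19, Rnf125 and Trim12a in the lead. G protein-coupled receptors had 9 of 27 (33.3%), 3 of them at Adgre5, but 6 of 22 outside promoters (27.3%, below the 30.5% of the table), kinesins and dyneins 5 of 15 and tyrosine phosphatases 5 of 15.

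Other families had smaller shares over all their peaks. Respiratory chain and ATP synthase genes had 0 of 21 (upper limit of the 95% Wilson interval 15.5%), histone genes 1 of 22 (4.55%, Hist1h1d), Zfp zinc finger genes 10 of 78 (12.8%, interval 7.12 to 22.0%) and MAP kinases with dual-specificity phosphatases 4 of 31 (12.9%). These lists hold many promoter peaks, against 33.3% of the table. Promoters made up 57.1% of the respiratory chain, 54.5% of the histone, 55.1% of the Zfp and 48.4% of the MAP kinase and phosphatase peaks. Outside promoters the shares were 0 of 9, 1 of 10, 9 of 35 (25.7%) and 2 of 16 (12.5%) in the same order, against 30.5% over the table. Ribosomal protein genes had 7 of 37 (18.9%), but 6 of 14 outside promoters (42.9%, against 30.5% over the table). Of the 7, 6 were at mitochondrial ribosomal genes, led by Mrpl3 with 33.3 and 30.9 in Sin3B+/+ and 154 and 155 in Sin3B-/- LT-HSCs. RNA helicases and splicing factors had 8 of 37 (21.6%), and 7 of 14 outside promoters. The intervals of most lists include 22.8%, and no list was tested.

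Among lists of blood and cell cycle genes, the stem cell programme had 6 2-fold peaks of 37 (16.2%), 3 of them in Myct1 and 1 each at Foxo3 (a factor that protects quiescent stem cells, log2 ratio 1.12), Erg (1.11) and the promoter of Hoxb5 (1.07). The erythroid and megakaryocyte programme had 5 of 13 (38.5%, interval 17.7 to 64.5%). They were at Hbb-bt (adult beta-globin), with 60.0 and 40.8 against 135 and 153, at Zfpm1 (FOG1, the cofactor of GATA1) in 2 introns, at the promoter of Pf4 (a platelet chemokine) and at Selp (P-selectin). Lymphoid genes had 1 of 7 (Zbtb7b), and myeloid genes 1 of 5, near Spi1, the gene of PU.1, just past the rule. Outside promoters the stem cell programme had 5 of 30 (16.7%), the erythroid and megakaryocyte programme 4 of 9 and the lymphoid list 0 of 5, against 30.5% over the table. The list of multipotent progenitor markers had no row.

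Cell cycle genes had 3 of 22 (13.6%), and 3 of 13 outside promoters (23.1%, against 30.5% over the table). Lin54, a DNA-binding subunit of the DREAM complex, had 19.4 and 23.6 in Sin3B+/+ and 103 and 73 in Sin3B-/- LT-HSCs (log2 ratio 2.03), Trp53 59.8 and 73.7 against 199.9 and 218 (1.65), and Aurkb, the mitotic kinase, was just past the rule at 1.01. Interferon pathway genes had 5 of 22 (22.7%), at Irf2 (2 peaks, log2 ratios of 2.25 and 1.16, over 100 kb from the gene start), Jak2, Ifit1 and the promoter of Ptpn6. Sin3 and HDAC corepressor genes had 3 of 23 (13.0%), at Mxd1 (a partner of MAX that recruits Sin3 proteins, 1.94), Chd3 (1.24) and Hdac9 (1.13). AP-1, Egr, Klf and Atf factors had 6 of 24, all of Fos, Fosb and Junb. Of the genes that the study had placed in 2 clusters by single-cell RNA-Seq of Lineage-, Sca-1+, c-Kit+ cells, Cluster II had 11 of 54 peaks (20.4%, Mt1, Zfpm1, Pik3r1 and Soga1 among them) and Cluster IV 12 of 58 (20.7%, with Adgre5, Ablim1 and Lrmda), both near the 22.8% of the table.

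**Figure D5:**
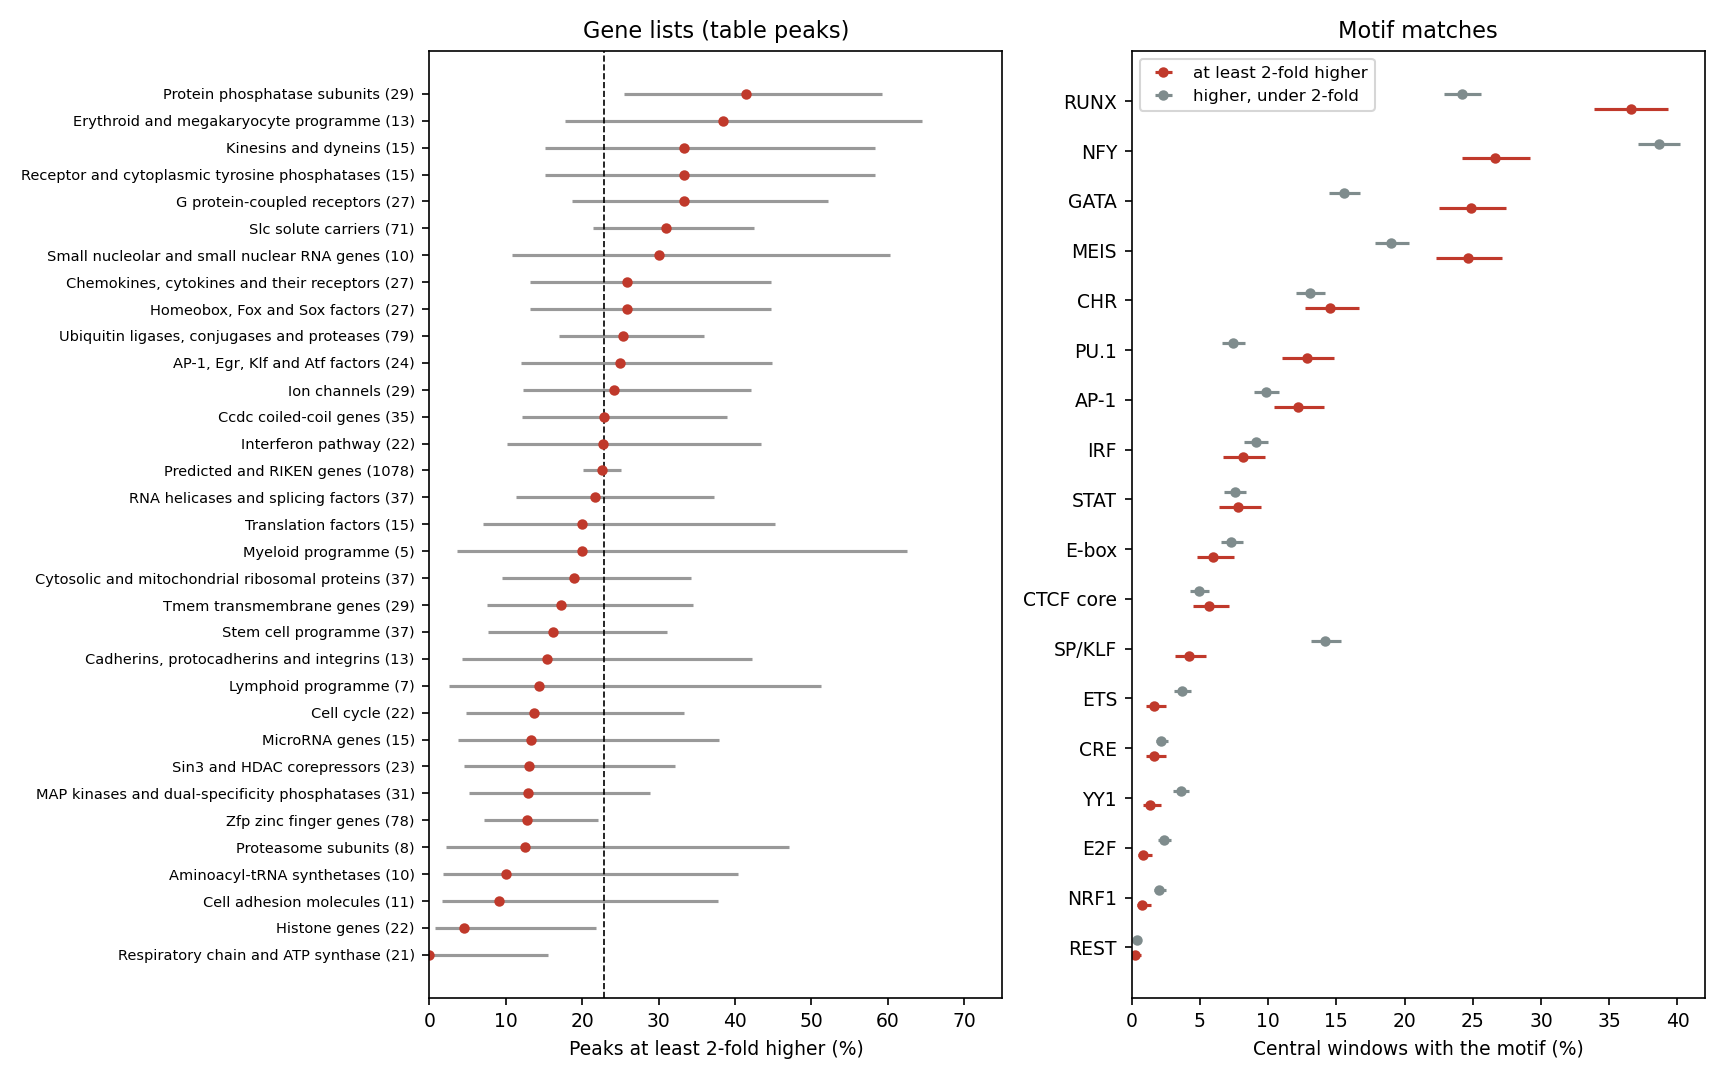
Left, share of the table peaks of each gene list shown that were 2-fold peaks (percent, points with 95% Wilson intervals for counting error, number of table peaks in parentheses, dashed line at 22.8%). Right, share of central 300-base windows holding each motif in the 2-fold peaks (red) and the smaller gains (grey), with the same intervals, where RUNX, GATA, PU.1 and MEIS are more frequent in the 2-fold peaks and SP/KLF and NFY less.

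The central 300 bases of each peak were searched for 18 short motifs as exact letters on both strands, N standing for any base. Motifs of blood factors were more frequent in these central windows of the 2-fold peaks than in those of the smaller gains. The RUNX motif TGTGGT was in 445 of 1217 windows (36.6%, 95% Wilson interval 33.9 to 39.3%) against 24.2% of the smaller gains, the GATA motif AGATAA in 303 (24.9%) against 15.6%, and the PU.1 motif GAGGAAGT in 156 (12.8%) against 7.41%. The MEIS motif TGACAG was in 24.7% against 19.0%. In 32585 RefSeq promoters of the same length (GRCm38, 250 bases before to 50 after the start), the shares were 16.6%, 11.2%, 3.22% and 18.9%. At least 1 of RUNX, GATA and PU.1 was found in 701 of the 2-fold peaks (57.6%) and in 38.8% of the smaller gains, and all 3 in 12 and 19 peaks. Over whole peaks, which are wider in the smaller gains, the contrasts were smaller or turned. RUNX was then in 48.6% and 45.2%, GATA in 32.9% and 28.3% and PU.1 in 15.1% and 12.6%. The order turned for MEIS, with 34.9% and 42.7%.

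Motifs typical of CpG-rich promoters went the other way. The SP/KLF motif GGGCGGGG was in 4.19% of the 2-fold peaks and 14.2% of the smaller gains, the NFY motif CCAAT in 26.6% and 38.6%, the ETS motif CCGGAAGT in 1.64% and 3.68%, the YY1 motif AAGATGGC in 1.31% and 3.60%, the NRF1 motif GCGCATGC in 0.740% and 2.03%, and the E2F motif GGCGGGAA in 0.822% and 2.39%. In RefSeq promoters these 6 were in 17.7%, 37.6%, 3.92%, 2.75%, 2.71% and 2.20%. The ETS and PU.1 motifs share the letters GGAAGT, and E2F and SP/KLF share GGCGGG, but the letters beside them differ, so that 1 stretch cannot match both motifs of a pair at the shared letters.

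The remaining motifs differed little between the 2-fold peaks and the smaller gains. The AP-1 motif TGANTCA was in 12.2% and 9.86% (7.85% of RefSeq promoters), the core of the CTCF motif AGGNGGCAG in 5.67% and 4.94% (3.88%), the CHR motif TTTGAA, which the DREAM complex binds, in 14.5% and 13.0% (17.6%), and the E-box CACGTG in 6.00% and 7.31% (7.197%). IRF (GAAANNGAA) was in 8.13% and 9.08% (8.52%), STAT (TTCNNNGAA) in 7.81% and 7.54% (8.33%), CRE (TGACGTCA) in 1.64% and 2.19% (1.80%) and the REST letters TTCAGCACC in 0.247% and 0.360% (0.374%).

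Part of the motif contrast went with position and level. Among peaks outside promoters with a Sin3B+/+ level between the 10th and 40th percentile of the table (38.3 to 133), 480 were 2-fold peaks and 768 smaller gains. There RUNX was in 38.5% and 31.6%, GATA in 28.3% and 23.7%, PU.1 in 14.0% and 10.5%, MEIS in 24.0% and 22.3%, NFY in 24.0% and 27.3% and SP/KLF in 2.92% and 3.39%. For these 6 motifs the 2-fold peaks stayed on the same side of the smaller gains, with smaller gaps. The gap of IRF was wider there, with 8.75% of the 2-fold peaks and 12.8% of the smaller gains, against 8.13% and 9.08% over all windows. That of the rare REST letters was also wider, with 0% and 0.391%. The order turned for 7 of the 18, which were AP-1 (10.8% and 12.0%), ETS (2.08% and 1.04%), E-box (7.29% and 4.69%), CRE (1.88% and 0.651%), STAT (5.00% and 7.81%), CHR (15.6% and 16.0%) and E2F (0.417% and 0.391%). This comparison was chosen after the data were seen. In the 229 lower peaks RUNX was in 47.6% of windows, more than in the 2-fold peaks, and PU.1 in 4.80%, fewer.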

How the data were processed

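ATAC-Seq was done on LT-HSCs in 2 libraries of each genotype, named by their labels, with 2 mice pooled per library and 12 PCR cycles per the labels. The authors trimmed and aligned reads (Trimmomatic by the submitters' processing notes, bowtie2), removed duplicates (sambamba), called peaks (MACS2) and counted, normalized and tested them (DiffBind, DESeq2). The deposited values are a signal, reads per peak times 1 factor per library. The deposited log2 level and fold columns and p-values are the authors' own and were not used. The labels name build mm9, but 5150 of 5330 matched gene positions equal GENCODE M21, so GRCm38 was used.

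Ratios are the log2 of summed Sin3B-/- over summed Sin3B+/+ levels. Total depth is unknown here. The lower levels of the whole table fell on multiples of 1 step size per library to within 0.0125. The steps were 0.228 and 0.343 in Sin3B+/+ replicates 1 and 2, and 0.625 and 1 in Sin3B-/- replicates 1 and 2. Divided by them, levels in the 2-fold peaks give medians of 219, 119, 173 and 113 reads in the 4 libraries. These unscaled medians overlapped between genotypes. By the same steps, 3 reads correspond to levels of 0.685 to 3.0. Peak centres were placed with GENCODE M21 basic transcripts. Repeats are the lower-case bases of the reference. The peaks and gene lists were chosen with earlier results of these data known, and symbol patterns were corrected after their matches were seen. Peaks named were the 10 largest ratios, the 5 highest and lowest Sin3B+/+ levels, 3 on each side of the threshold, genes with 3 or more 2-fold peaks and the leading members of each list. Others are said to be chosen after seeing values. The ratio rule and motif search were tested on simulated data. Software was Python 3.11.15, pandas 2.3.3, scipy 1.17.1, pysam 0.24.0 and samtools 1.23.1. Some genes and gene lists are not reported here.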

Additional observations from a re-analysis of the deposited data

How the results depend on the processing

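The number of 2-fold peaks was 1217. Leaving out 1 library in turn gave 806 (without Sin3B+/+ replicate 2) to 1936 (without Sin3B+/+ replicate 1), of which 767 and 1174 were among the 1217. It was 466 with the lowest Sin3B-/- library at least 2-fold above the highest Sin3B+/+ library, 98 with libraries scaled to the same median, 113 with the same total, 335 with a Sin3B+/+ level of at least the table's lower quartile and 50 at a log2 ratio of 2. With log2(level + 1), means of log2 levels, or without Vav1 (added after seeing the data) it was 1176, 1243 and 1214. The promoter share of 10.8% ranged from 9.68% to 16.2% when 1 library was left out, and was 8.16% with the same medians, 4% at a log2 ratio of 2, 32.9% within 3000 bp of a start site and 4.68% by the table's own distance to the gene start. The median Sin3B+/+ level of 45.4 ranged from 39.9 to 70.0 when 1 library was left out, and was 23.7 with the same medians and 21.3 at a log2 ratio of 2. The RUNX share of 36.6%, against 24.2% of the smaller gains, was 48.6% over whole peaks, which are longer than the window. The smaller gains had 45.2% over whole peaks, so the gap narrowed. Of 35 gene lists with table peaks, the study's 2 clusters left out, 15 had a share above the table's and 15 did within 10000 bp of the gene's start, of which 10 were above both. Of 36 motif shares under other settings 18 stayed within their Wilson interval, and of 37 list counts 11 stayed within 1.5 times. Beyond the alternatives' own construction, the cause of these changes was not tested. No paired analysis was possible because no test of genotype was made on peaks chosen by that contrast, and same-numbered libraries came from different mice. With 2 libraries per genotype, groups were too small to look for outlying samples.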
